A study of Mus musculus with 12 samples.

Results

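Splicing factor mRNAs were followed through polysome libraries of mouse liver. The 72 members are the protein-coding genes whose symbols start with Srsf, Hnrnp, Sf3a, Sf3b, U2af, Prpf, Snrp or Luc7l, plus Ik, out of 27179 gene IDs in the count tables. The symbol rule also met Hnrnpa1l2-ps2, a named pseudogene with 11 counts in all, which was left out. There were 11 Srsf, 20 Hnrnp, 3 Sf3a, 6 Sf3b, 3 U2af, 13 Prpf, 12 Snrp and 3 Luc7l genes and Ik. The minimum on low counts let 68 of the 72 into the tests. Of the other 4, Srsf12 had 0 counts in every library, Snrpf had at most 6 counts, Snrpg at most 10, and Snrpn, an imprinted SmB-like gene, had 16 counts in chow 2 heavy and at most 2 elsewhere.

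The libraries came from livers of male C57BL/6 mice. A mouse with the genotype eIF4E S209A/S209A ate chow (1 animal, called S209A here), wild-type mice ate a ketogenic diet for 24 h (2 animals, keto), and wild-type mice ate chow (3 animals, chow). All chow-fed animals carry the same treatment label, but the titles of chow 1 and chow 2 use the word chow, and those of chow 3 and S209A the word fed; this wording is the title split referred to below. The labels used here give no age and no cage. eIF4E is the protein that binds the cap at the 5′ end of mRNA, and the changed serine is the one that the MNK kinases phosphorylate. Each liver lysate was parted on a sucrose gradient into a heavy and a light pool, where heavy polysomes carry more ribosomes per mRNA, and every pool gave 1 library. The labels do not state which range of gradient fractions is the heavy pool. The design asks which liver mRNAs are highly or poorly translated under each diet and genotype. The libraries held 3341046 to 13263355 counts, of which 356666 to 1777315 fell on nuclear protein-coding genes and 1900 to 18950 on the members. S209A has 1 animal, and no test was made on it.

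Splicing removes introns from pre-mRNA in the nucleus. The spliceosome is built from small nuclear ribonucleoproteins, or snRNPs: U1 marks the 5′ splice site, U2 the branch point, and the U4/U6.U5 tri-snRNP brings in the parts that become the catalytic centre. SR proteins (Srsf genes) mostly promote the use of nearby splice sites, and hnRNP proteins (Hnrnp genes) often repress it. The proteins act in the nucleus, but their mRNAs are translated on cytoplasmic ribosomes like any other, and that is what polysome libraries sample. Many SR and hnRNP genes control their own level through poison exons or retained introns, whose transcripts stay in the nucleus or decay. Counts per gene do not separate those transcripts from the coding mRNA. In bulk liver, fewer cells of a type and less RNA per cell cannot be told apart.

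Chow 3 and S209A stood apart from the other 4 animals. Per the file headers their reads were aligned with HISAT2, those of chow 1 and chow 2 with Bowtie2, and the headers of keto 1 and keto 2 name no aligner. Counts on nuclear protein-coding genes were 29.6% of S209A heavy, 38.0% of S209A light, 29.7% of chow 3 heavy and 39.3% of chow 3 light, against 5.60% and 6.01% of keto heavy and 15.9% and 22.2% of the heavy libraries of chow 1 and 2. In light they were 6.61% and 4.09% of keto and 6.53% and 8.16% of chow 1 and 2. Mitochondrially encoded genes took 47.5% and 74.4% of counts in keto heavy, against 16.8%, 13.1% and 13.8% in chow heavy, and 37.8% and 51.9% in keto light, against 58.3%, 52.7% and 13.6% in chow light; in S209A they took 12.7% and 12.2%. The part of this difference in the keto values below was not tested. Counts on annotated pseudogenes were 0.316% to 0.341% of the protein-coding counts in chow 3 and S209A and 1.28% to 2.76% in the other 4 animals, a range that bears on members with many pseudogene copies. Snrpd1, which encodes a protein of the Sm ring that every major spliceosomal snRNP but U6 wears, had 4 and 12 counts in S209A heavy and light and 20 and 8 in chow 3, and at most 2 in any other library. Snrpe, of the same ring, had 8 and 6 counts in S209A and 20 and 19 in chow 3, and at most 2 elsewhere. Diet and read processing cannot be told apart between keto and chow, and the main values are given with and without chow 3.

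The part of each library taken by these genes was lowest in the keto livers. All members together made 0.627% and 0.719% of nuclear protein-coding counts in keto heavy, against 0.771%, 0.731% and 1.07% in chow heavy. In the light pool they made 0.544% and 0.533% in keto, against 0.882%, 0.738% and 1.09% in chow. Keto lay below chow in both pools without overlap, narrowly in heavy (0.719% in keto 2 against 0.731% in chow 2) and widely in light. The means were 0.673 ± 0.065% in keto heavy and 0.856 ± 0.183% in chow heavy, and 0.538 ± 0.008% in keto light and 0.903 ± 0.175% in chow light (SD, n = 2 keto and 3 chow animals). S209A had 0.905% in heavy and 0.794% in light, inside the chow range in both pools.

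**Figure D1:**
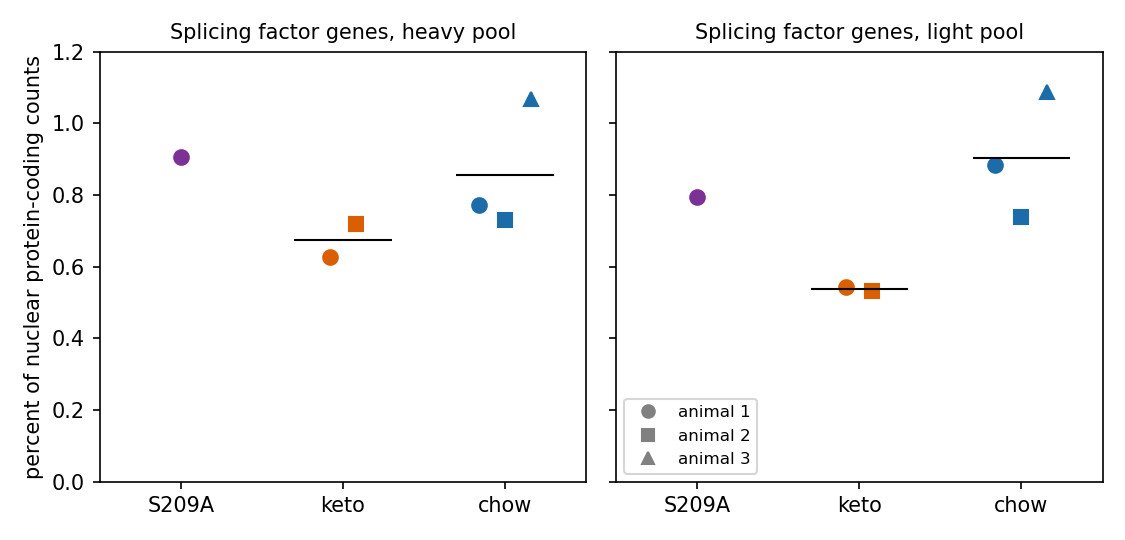
Percent of nuclear protein-coding counts on the 72 splicing factor genes (vertical axis) in the heavy pool (left) and the light pool (right), for S209A, keto and chow; each point is 1 library, its shape the animal number, and the line the group mean. Both keto points lie below all 3 chow points in each pool, and chow 3 is the highest point.

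Since eIF4E binds at the cap, the first letters of these mRNAs are shown for the members with a pyrimidine run at the start and for members whose values stand out below. mRNAs that open with a C and a run of pyrimidines, called TOP mRNAs, are the best known class whose translation follows nutrient supply. RefSeq starts (GRCm38.p6) were found for 61 of the 72 members, with 82 starts. Only 3 of 82 (3.66%) opened with 5 or more pyrimidines in a row, against 3.87% of 20439 starts of coding genes, so such starts were about as common as elsewhere. Lower case is the 15 bases before the annotated start and capitals are the first 15 transcribed bases. The 3 with a run are:
Hnrnpa0, chr13:58128542-58128571, minus strand: cgcgccttcagcggcCTCTTTGTGTGGTGT
Srsf5, chr12:80945484-80945513, plus strand: gacgccaggacgtccCTTCCATTTTGTGCA
Prpf6, chr2:181601304-181601333, plus strand: ctaggtgggcggggcTTTCCGTGACCCAGC
Members with low keto values or pool differences below, Ik apart, whose sequence is not shown, are:
Hnrnph2, chrX:134601164-134601193, plus strand: agtgatcccgagtttAAGCCGAGAGTTGCT
U2af1 start 1, chr17:31658740-31658769, minus strand: cgggtgacgtctccgGAGGGACGTCGGCGT
U2af1 start 2, chr17:31658750-31658779, minus strand: gtcgtcgcgtcgggtGACGTCTCCGGAGGG
Luc7l2, chr6:38555708-38555737, plus strand: gactggaacaccaccACCACCTCCCCAGTA
Luc7l3, chr11:94321949-94321978, minus strand: ccacgggcgcacggcATGCTGGGAAGGTGC
None of the starts shown in the second set opens with a run of 5 pyrimidines. The starts of U2af1, Luc7l2 and Luc7l3 lie inside the annotated gene. Luc7l2 is the furthest in, at base 38555723 of a gene from 38551334 to 38609953, so its outermost start is not shown. Hnrnpa0 and Srsf5 open with a C and Prpf6 with a T. 

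In the 250 bases before the start, median GC content was 60% in members and 56% in all coding genes, and the median number of CG dinucleotides was 19.5 in members and 10 in all coding genes. The letters CCAAT, on either strand, stood in 46.3% of member windows and 35.4% of all windows. CACGTG (E-box) stood in 9.76% and 6.80%, GCGCATGC (NRF1 core) in 4.88% and 3.04%, and TGACGTCA (CRE) in 2.44% and 1.97%. A match is a description of the letters and not a bound site. In the second set of starts above, Hnrnph2, U2af1 and Luc7l2 had a CCAAT in the window and Luc7l3 had none. The windows of 2 members with low keto values are given with every CCAAT, read on either strand, in capitals; in U2af1, shown for start 1, 2 matches overlap:
Hnrnph2, chrX:134600929-134601178, plus strand: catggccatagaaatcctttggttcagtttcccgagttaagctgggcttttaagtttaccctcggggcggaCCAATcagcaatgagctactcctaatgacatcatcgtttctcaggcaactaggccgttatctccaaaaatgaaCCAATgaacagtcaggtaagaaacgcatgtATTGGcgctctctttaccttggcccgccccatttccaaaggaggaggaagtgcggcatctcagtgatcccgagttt
U2af1, chr17:31658755-31659004, minus strand: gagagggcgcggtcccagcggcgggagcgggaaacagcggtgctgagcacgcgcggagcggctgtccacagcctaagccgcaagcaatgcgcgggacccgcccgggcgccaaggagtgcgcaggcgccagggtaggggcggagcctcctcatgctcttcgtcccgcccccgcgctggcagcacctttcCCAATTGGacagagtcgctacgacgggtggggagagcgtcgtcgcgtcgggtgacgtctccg

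The first comparison set keto against chow within each pool. Most splicing factor mRNAs had lower levels in keto than in chow in both pools, but no single member passed the test. A fitted log2 value is keto over chow, so negative means lower in keto. In heavy, 55 of 68 were negative, beside 5440 of 10552 for all genes tested. The medians were -0.69 for members and -0.04 for all genes. In light, 56 of 68 were negative, beside 5892 of 10551 for all genes, with medians of -0.75 and -0.13. Both member counts include Snrpb2, Snrpc, Snrpd1 and Snrpe, which entered the tests through their counts in chow 3 and S209A. Sf3b6 entered the tests in the same way. With members at 0 counts in both keto libraries set to their bound, the medians were -0.66 over 67 members in heavy and -0.74 over 68 in light. With no minimum on counts they were -0.74 and -0.77.

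A member passed at an edgeR adjusted p of at most 0.05, by the quasi-likelihood test with Benjamini-Hochberg adjustment over all genes. In heavy 0 of 10552 genes passed (0%), and in light 0 of 10551 (0%). DESeq2 called 98 genes in heavy and 0 in light. At an unadjusted edgeR p under 0.05, 12 of 68 members were lower in keto heavy (17.6%) where 5.16% of all genes were, and 0 were higher where 3.01% were. In light 13 of 68 were lower (19.1%) where 3.73% of all genes were, and 0 were higher where 2.33% were. Without chow 3 the member median was -0.37 in heavy, with 45 of 68 negative, and -0.55 in light, with 48 negative, beside 0.08 and -0.07 for all genes. Of all genes, 4957 of 10537 in heavy and 5612 of 10534 in light were negative in those fits.

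The groups can also be read from the libraries alone. Both keto libraries lay below all 3 chow libraries for 25 of 68 members in heavy (36.8%), beside 13.4% of all genes, and above them for 0 of 68, beside 14.5%. In light they lay below for 33 of 68 (48.5%), beside 14.6%, and above for 1 of 68, beside 11.2%; that member was Sf3a3. Among genes with a mean of at least 50 counts, a limit chosen after seeing the data, the keto libraries lay below for 18 of 37 members in heavy, beside 23.5%, and for 17 of 36 in light, beside 17.1%. They lay above for 0 of 37, beside 13.8%, and 0 of 36, beside 12.9%. Against chow 1 and chow 2 alone, also chosen after seeing the data, 30 of 68 lay below in heavy, beside 20.4%, and 4 above, beside 23.1%. In light 34 of 68 lay below chow 1 and 2, beside 20.7%, and 5 above, beside 16.2%. More members lay below than above in both pools, with and without chow 3.

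**Figure D2:**
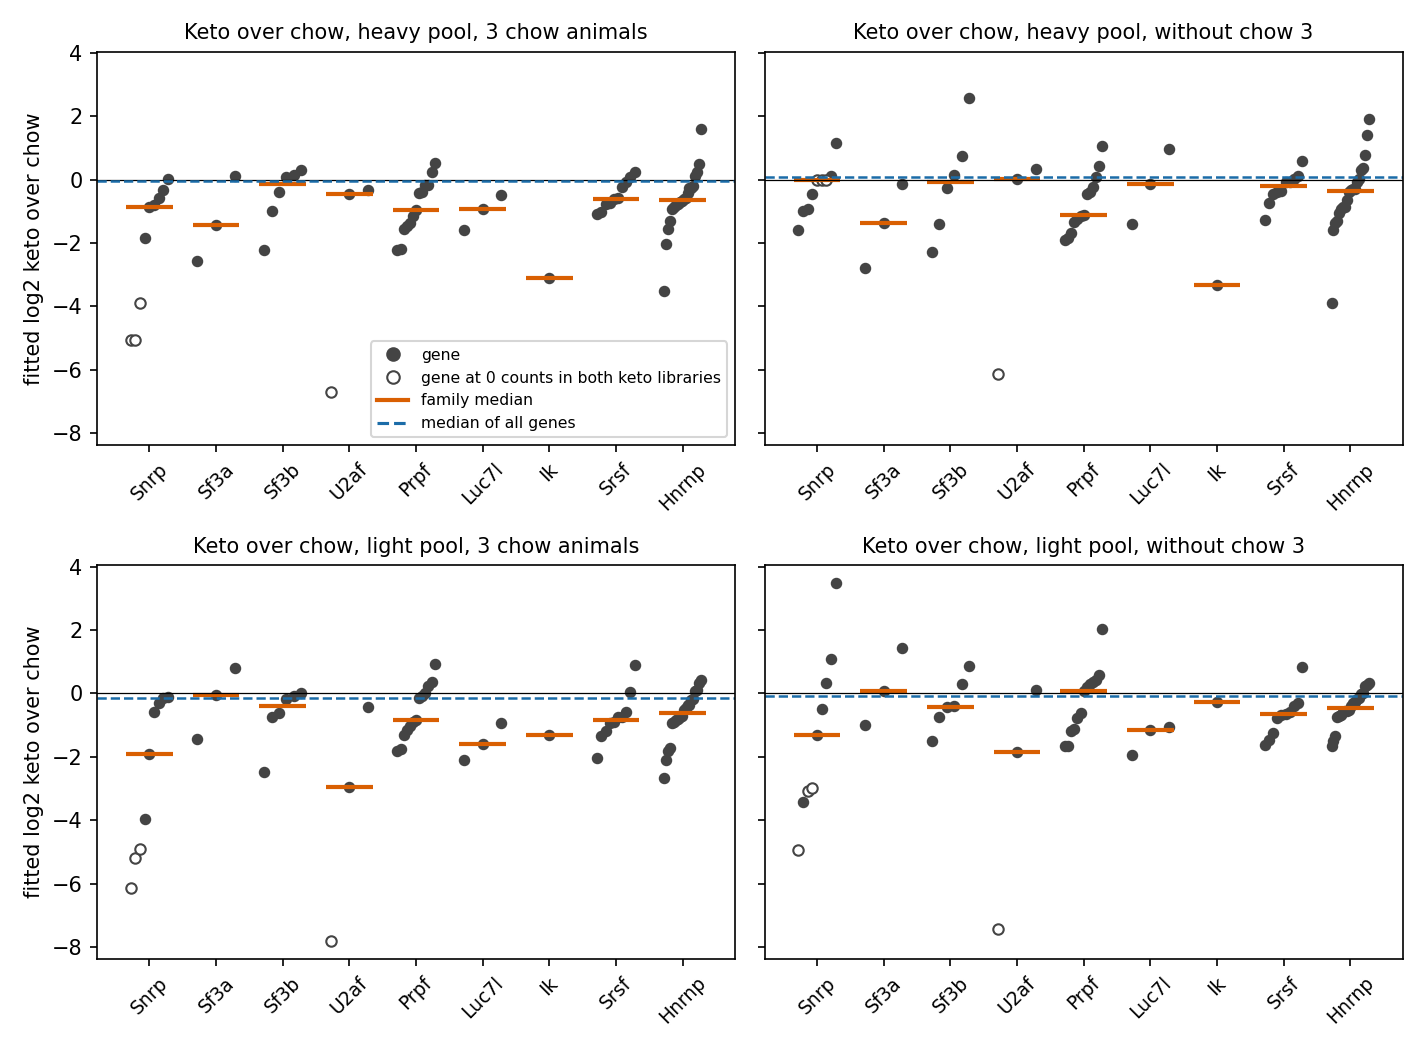
Fitted log2 keto over chow (vertical axis) of the 68 tested splicing factor genes by family, in the heavy pool (top) and the light pool (bottom), with all 3 chow animals (left) and without chow 3 (right); open circles are genes at 0 counts in both keto libraries, whose fitted value is no measured fold. Most points lie below the dashed median of all genes with 3 chow animals; without chow 3 the Snrp median in heavy is 0.00 and the Prpf median in light is 0.07.

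Ik and Hnrnph2 had the lowest keto over chow values among members with counts in every library of the heavy pool. Ik encodes RED, a protein of the spliceosome before its activation (chromosome 18, 36744656 to 36757639 in GRCm38.p6). It had 17 and 33 counts in keto heavy, against 157, 363 and 353 in chow heavy. In CPM, counts scaled to a library size that the TMM method adjusts for composition, these were 2.67 and 6.37 CPM in keto heavy, against 39, 52.6 and 25.7 CPM in chow heavy. The highest keto library thus lay far below the lowest chow library. The fitted difference was log2 -3.11 ± 0.61 (SE, n = 2 keto and 3 chow), with an edgeR adjusted p of 0.228. In light the gene had 7.05 and 5.30 CPM in keto light, against 8.18, 6.75 and 31.5 CPM in chow light, where only chow 3 was clearly higher, and the log2 value was -1.33 ± 0.70 (edgeR adjusted p 0.799).

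Hnrnph2 encodes an hnRNP that binds G-rich RNA (chromosome X, 134601179 to 134607060). It had 14 and 11 counts in keto heavy, against 145, 205 and 116 in chow heavy, or 2.20 and 2.12 CPM in keto heavy, against 36, 29.7 and 8.46 CPM in chow heavy. Chow 3 lay well under chow 1 and 2 and above both keto libraries. The log2 value was -3.50 ± 0.73 (edgeR adjusted p 0.268). In light it had 2.48 and 1.06 CPM in keto light, against 5.22, 5.32 and 7.95 CPM in chow light, again without overlap, at log2 -1.73 ± 0.64 (edgeR adjusted p 0.796). Neither Ik nor Hnrnph2 passed in heavy as fitted. Both did when chow 3 was left out, with edgeR adjusted p of 0.00211 and 0.00154, where 108 of 10537 genes passed (1.02%). They also passed with the title wording as a batch term (edgeR adjusted p 0.00119 and 0.000891), where 1.19% of genes did, by DESeq2 (adjusted p 0.000217 and 0.000963) and without a minimum on counts (edgeR adjusted p 0.000483 and 0.000310). No other member passed in these 4 fits of the heavy pool. Hnrnph1, the close relative of Hnrnph2, had 19.3 and 13.5 CPM in keto heavy, against 17.6, 15.2 and 26.6 CPM in chow heavy, which overlapped (log2 -0.27 ± 0.50).

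**Figure D3:**
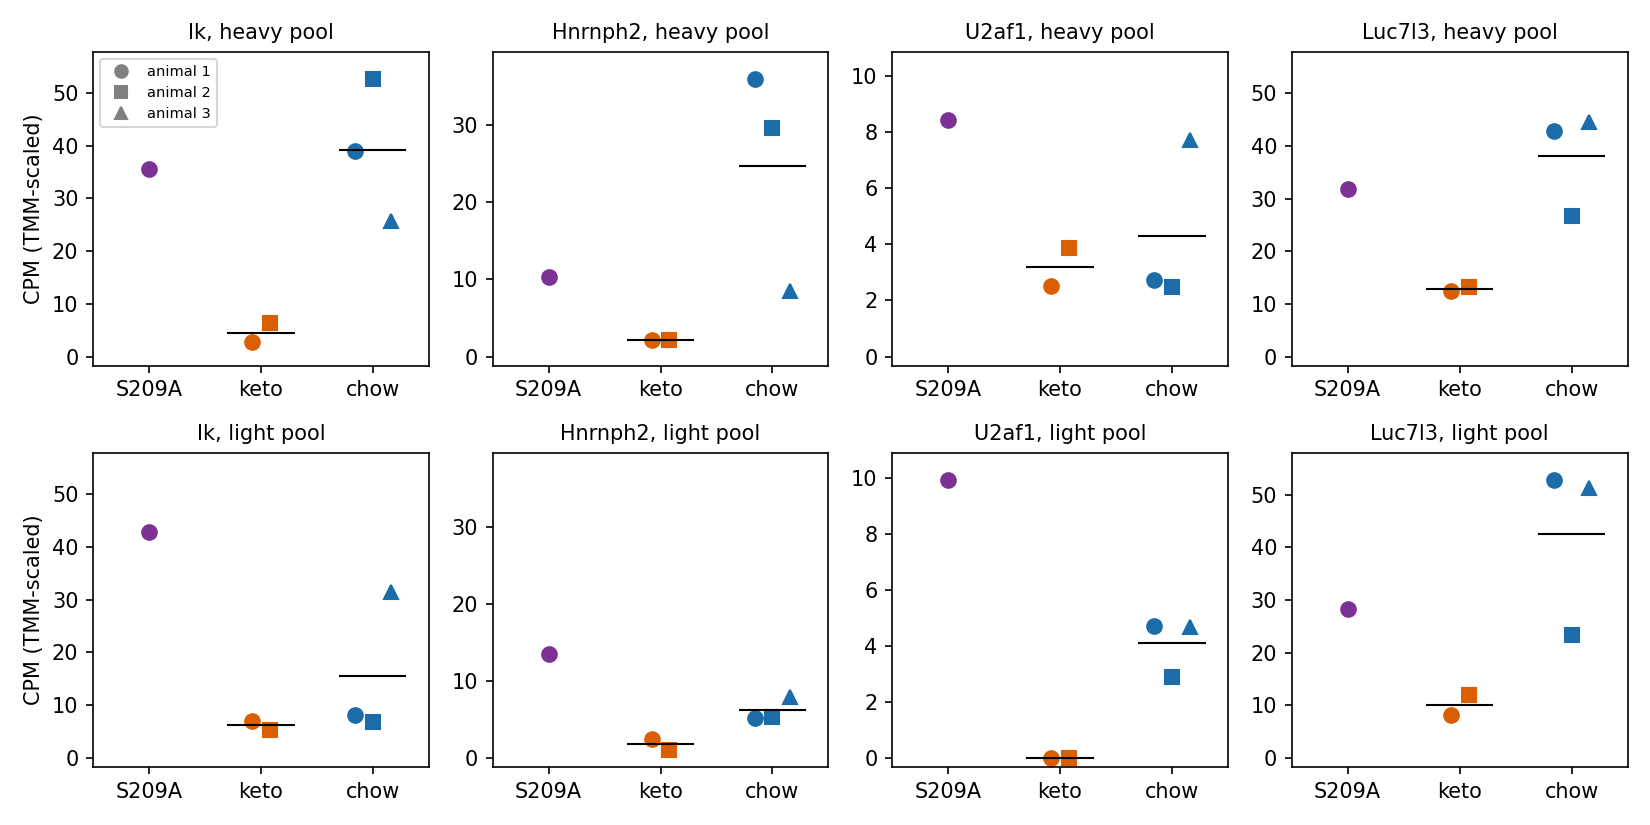
TMM-scaled CPM (vertical axis) of Ik, Hnrnph2, U2af1 and Luc7l3 in the heavy pool (top) and the light pool (bottom) for S209A, keto and chow; each point is 1 library, its shape the animal number, and the line the group mean. The keto points of Ik and Hnrnph2 lie at 2.12 to 6.37 CPM in heavy, U2af1 is at 0 in both keto light libraries, and Luc7l3 is low in keto in both pools.

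Among the snRNP proteins of the Snrp family, 8 of 9 tested members had negative values in heavy and 9 of 9 in light, with medians of -0.86 and -1.91. Of these, Snrpb2, Snrpc, Snrpd1 and Snrpe had most of their counts in chow 3 and S209A and entered the tests through them. Snrpb2, Snrpd1 and Snrpe were at 0 counts in keto heavy and in chow 1 and 2 heavy. Their negative signs there came from chow 3 alone. Snrpc had 0 and 0 counts in keto light, against 0, 2 and 42 in chow light, so its value there rested on chow 3. With genes at 0 counts set to their bound, the medians were -0.83 over the 8 members for which a fold can be given and -0.59 over 9. Without chow 3 the heavy median was 0.00, with 4 of 9 negative and 2 positive, and the light median -1.33, with 6 negative and 3 positive. Summed, the family made 154 and 129 CPM of the protein-coding counts in keto heavy, against 163, 192 and 214 in chow heavy, and 91.3 and 123 in keto light, against 168, 132 and 315 in chow light. Snrpb, which encodes the Sm ring proteins B and B′, had 2.99 and 7.53 CPM in keto heavy, against 7.70, 12.5 and 8.38 CPM in chow heavy, just without overlap (log2 -0.86 ± 0.62), while in light keto 2 (9.54 CPM) lay inside the chow range. Snrpd2, also of the Sm ring, had 15 and 2 counts in keto heavy, against 6, 8 and 20 in chow heavy, which overlapped (log2 0.02 ± 1.11). Snrpa, which encodes the A protein of the U1 snRNP, had 2 and 0 counts in keto light, against 20, 14 and 80 in chow light (log2 -3.97 ± 1.11, edgeR adjusted p 0.796). These are low counts, and the values of chow 3 were the highest of the chow libraries for Snrpb, Snrpd2 and Snrpa in light.

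In the U2 snRNP, the Sf3a and Sf3b proteins clasp the branch point. Of the 3 Sf3a genes 2 were negative in heavy and 2 in light, and of the 6 Sf3b genes 3 in heavy and 5 in light (medians of Sf3b -0.14 and -0.40). Sf3b1, the large scaffold of the complex, had 46.1 and 16.8 CPM in keto heavy, against 22.3, 16.2 and 37.5 CPM in chow heavy, with keto 1 the highest and keto 2 inside the chow range (log2 0.31 ± 0.56). In light it had 18.9 and 14.1 CPM in keto light, against 14.8, 29.9 and 31.5 CPM in chow light (log2 -0.62 ± 0.50). Sf3a1 had 14 and 9.46 CPM in keto heavy, against 12.4, 13.8 and 6.27 CPM in chow heavy, which overlapped (log2 0.13 ± 0.55). The Sf3a2 subunit had 11 and 0 counts in keto heavy, against 34, 31 and 48 in chow heavy (log2 -2.57 ± 1.11, edgeR adjusted p 0.576). Of the families, Sf3b had the median nearest to that of all genes in heavy.

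U2af1 and U2af2 form the dimer that recognises the 3′ splice site, the small subunit reading its AG and the large one the pyrimidine tract. U2af1 (chromosome 17, 31647081 to 31659148) had 0 and 0 counts in keto light, against 27, 20 and 60 in chow light. The mean of chow light was 11-fold above a floor of 3 counts over both keto light libraries, with chow 2 the lowest at 2.87 CPM. U2af1 did not pass as fitted (edgeR adjusted p 0.796). Of the settings tried, it passed only without the minimum on counts (edgeR adjusted p 0.00351). In heavy the gene was present in keto, at 16 and 20 counts in keto heavy, against 11, 17 and 106 in chow heavy, and the CPM values overlapped (2.52 and 3.86 in keto, against 2.73, 2.46 and 7.73 in chow). U2af2 had 9.34 and 15.2 CPM in keto light, against 12.4, 9.92 and 26.1 CPM in chow light and 8.49 and 14.1 CPM in keto heavy, against 10.4, 12.3 and 19.2 CPM in chow heavy, overlapping in both pools (log2 -0.42 ± 0.55 in light and -0.32 ± 0.53 in heavy). U2af1l4, a paralogue of U2af1, had 0 and 0 counts in keto heavy, against 7, 7 and 31 in chow heavy. The mean of chow heavy was 6.43-fold above a floor of 3 counts over both keto heavy libraries.

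The Prpf genes encode tri-snRNP proteins, the ligase Prpf19 and U1-associated helpers. Of 13, 11 were negative in heavy and 9 in light, with medians of -0.96 and -0.83. Without chow 3 the heavy median was -1.12 with 10 of 13 negative, while the light median was 0.07 with 6 of 13 negative. Prpf8, which cradles the catalytic centre, had 31.4 and 27 CPM in keto heavy, against 38.7, 42.2 and 37 CPM in chow heavy, without overlap and close together (log2 -0.43 ± 0.46). In light its values overlapped, with 34.9 and 29.7 CPM in keto light, against 26.6, 34.9 and 40.7 CPM in chow light. Prpf6, a bridge between U5 and U4/U6, had 6.92 and 10.8 CPM in keto heavy, against 34.8, 22.9 and 20.3 CPM in chow heavy, without overlap (log2 -1.55 ± 0.53, edgeR adjusted p 0.512), and 19.3 and 18.7 CPM in keto light, against 15.3, 17.8 and 29.5 CPM in chow light with overlap (log2 -0.14 ± 0.48). The test of that difference between the pools, keto minus chow in heavy over light, gave -1.46 ± 0.63 for Prpf6 and did not pass (edgeR adjusted p 0.721). Prpf4b, a kinase bound to the tri-snRNP, was low in keto in the other pool. It had 19.3 and 8.84 CPM in keto light, against 29.9, 35.2 and 41.2 CPM in chow light, without overlap (log2 -1.32 ± 0.52), and 33.7 and 21.4 CPM in keto heavy, against 20.4, 21.3 and 50.01 CPM in chow heavy with overlap (log2 -0.15 ± 0.54). Prpf38b had 32.6 and 18.9 CPM in keto heavy, against 69, 64.4 and 65 CPM in chow heavy and 19.1 and 13.4 CPM in keto light, against 65.9, 36.8 and 68 CPM in chow light, below chow in both pools (log2 -1.36 ± 0.50 and -1.80 ± 0.53, edgeR adjusted p 0.513 and 0.796). Prpf19, the ubiquitin ligase at the catalytic spliceosome, had the highest Prpf value in heavy (0.54 ± 0.67).

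All 3 Luc7l genes, whose proteins sit on the U1 snRNP and bear on the choice of 5′ splice site, had negative values in both pools (medians -0.93 in heavy and -1.59 in light). Without chow 3 the medians were -0.12, with 2 of 3 negative, and -1.16. Luc7l3 (chromosome 11, 94291073 to 94322329) had 12.4 and 13.1 CPM in keto heavy, against 43, 26.7 and 44.6 CPM in chow heavy and 8.20 and 12 CPM in keto light, against 52.7, 23.4 and 51.3 CPM in chow light. Both keto livers lay below all 3 chow livers in both pools. The log2 values were -1.57 ± 0.50 in heavy (edgeR adjusted p 0.490) and -2.09 ± 0.55 in light (edgeR adjusted p 0.796). Without chow 3 they were -1.41 and -1.93. Luc7l2 had 20.6 and 15.6 CPM in keto light, against 38.8, 36.9 and 87.7 CPM in chow light, below chow without overlap (log2 -1.59 ± 0.57). In heavy its chow values split, at 11.9, 11.6 and 105 CPM with 21.2 and 23.8 CPM in keto between them, so that the log2 value of -0.93 rested on chow 3 and was 0.97 without it.

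Fitted keto over chow values of SR protein genes ran from -1.09 (Srsf5) to 0.26 (Srsf3) in heavy and from -2.05 (Srsf10) to 0.89 (Srsf1) in light. Of them 8 of 10 were negative in heavy and 8 of 10 in light, with medians of -0.60 and -0.83 and, without chow 3, -0.21 and -0.66. Srsf2, whose protein binds C-rich and G-rich enhancers alike, had 19.8 and 19.3 CPM in keto heavy, against 51.4, 44.4 and 22.9 CPM in chow heavy and 13.7 and 10.6 CPM in keto light, against 27.1, 31.3 and 25 CPM in chow light. It lay below chow in every library of both pools (log2 -1.01 ± 0.51 and -1.19 ± 0.47, edgeR adjusted p 0.633 and 0.796). Srsf5 had 16.5 and 17.4 CPM in keto heavy, against 18.4, 13.5 and 76 CPM in chow heavy, with chow 2 below both keto libraries and chow 3 far above them (log2 -1.09 ± 0.70). In light it had 13.7 and 14.8 CPM in keto light, against 16.4, 26 and 39.5 CPM in chow light, just without overlap (log2 -0.94 ± 0.51). Srsf3, the smallest SR protein, overlapped in heavy, at 4.09 and 3.09 CPM in keto heavy, against 3.23, 1.74 and 4.01 CPM in chow heavy (log2 0.26 ± 0.71), and not in light, at 2.29 and 4.24 CPM in keto light, against 4.52, 5.46 and 6.00 CPM in chow light (log2 -0.75 ± 0.61). Srsf1, the founding SR protein, had a positive value in both pools, with 12.6 and 29 CPM in keto light, against 13.6, 9.34 and 10.1 CPM in chow light (log2 0.89 ± 0.50) and 16 and 9.66 CPM in keto heavy, against 20.6, 5.51 and 10.6 CPM in chow heavy (log2 0.09 ± 0.61), overlapping in both pools.

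Fitted keto over chow values of hnRNP genes ran from -3.50 (Hnrnph2) to 1.62 (Hnrnph3) in heavy and from -2.65 (Hnrnpa1) to 0.42 (Hnrnpa0) in light. Of the 20, 16 were negative in heavy and 16 in light (medians -0.63 and -0.62, and -0.36 and -0.46 without chow 3). Hnrnpk, which binds C-rich RNA, had 2.52 and 11.8 CPM in keto heavy, against 13.7, 30.2 and 42.4 CPM in chow heavy and 4.38 and 5.66 CPM in keto light, against 6.09, 10.5 and 46.4 CPM in chow light. Both keto livers lay below chow in both pools (log2 -2.02 ± 0.71 and -2.09 ± 0.82, edgeR adjusted p 0.512 and 0.796). Keto 2 was only just below chow 1 in each pool, and S209A and chow 3 were the 2 highest animals. Hnrnpa2b1, a reader of purine-rich RNA and a carrier of mRNA, had 27 and 31.3 CPM in keto heavy, against 36.2, 38.4 and 68.8 CPM in chow heavy and 32.8 and 19.4 CPM in keto light, against 40.2, 35.9 and 71.2 CPM in chow light, below chow in both (log2 -0.72 ± 0.50 and -0.91 ± 0.54). Hnrnpdl, a paralogue of Hnrnpd, had 3.05 and 6.01 CPM in keto light, against 9.92, 12.5 and 24.4 CPM in chow light, without overlap (log2 -1.83 ± 0.61), and 2.36 and 6.95 CPM in keto heavy, against 5.21, 17.8 and 17.1 CPM in chow heavy, with overlap (log2 -1.54 ± 0.70).

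Hnrnpa1, a classic splicing repressor with many pseudogenes, had 30 and 12 counts in keto heavy, against 0, 17 and 188 in chow heavy and 6 and 0 counts in keto light, against 12, 15 and 108 in chow light. Its high values were those of chow 3, and of S209A in heavy (109 counts), the animals with the low pseudogene share; whether read placement sets them was not tested. Hnrnpu, a nuclear scaffold protein, had 60.2 and 76.5 CPM in keto heavy, against 174, 186 and 144 CPM in chow heavy and 55.7 and 69.99 CPM in keto light, against 81.4, 101 and 145 CPM in chow light, below chow in both pools (log2 -1.30 ± 0.52 in heavy). On the other side, Hnrnpul1 had 15.7 and 26.3 CPM in keto heavy, against 7.45, 17.1 and 19.3 CPM in chow heavy (log2 0.51 ± 0.54), Hnrnpf 15.6 and 13.4 CPM in keto light, against 12, 17.4 and 5.61 CPM in chow light (log2 0.33 ± 0.55) and Hnrnpa0 14.1 and 19.1 CPM in keto light, against 14.3, 11.9 and 10.8 CPM in chow light (log2 0.42 ± 0.45), and for each the keto and chow libraries overlapped. Of the 4 Hnrnp genes positive in heavy, Hnrnpul1 was also positive in light. Hnrnph3 was the highest in heavy (1.62 ± 1.08) at 39 and 4 counts in keto heavy, against 4, 6 and 20 in chow heavy.

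**Figure D4:**
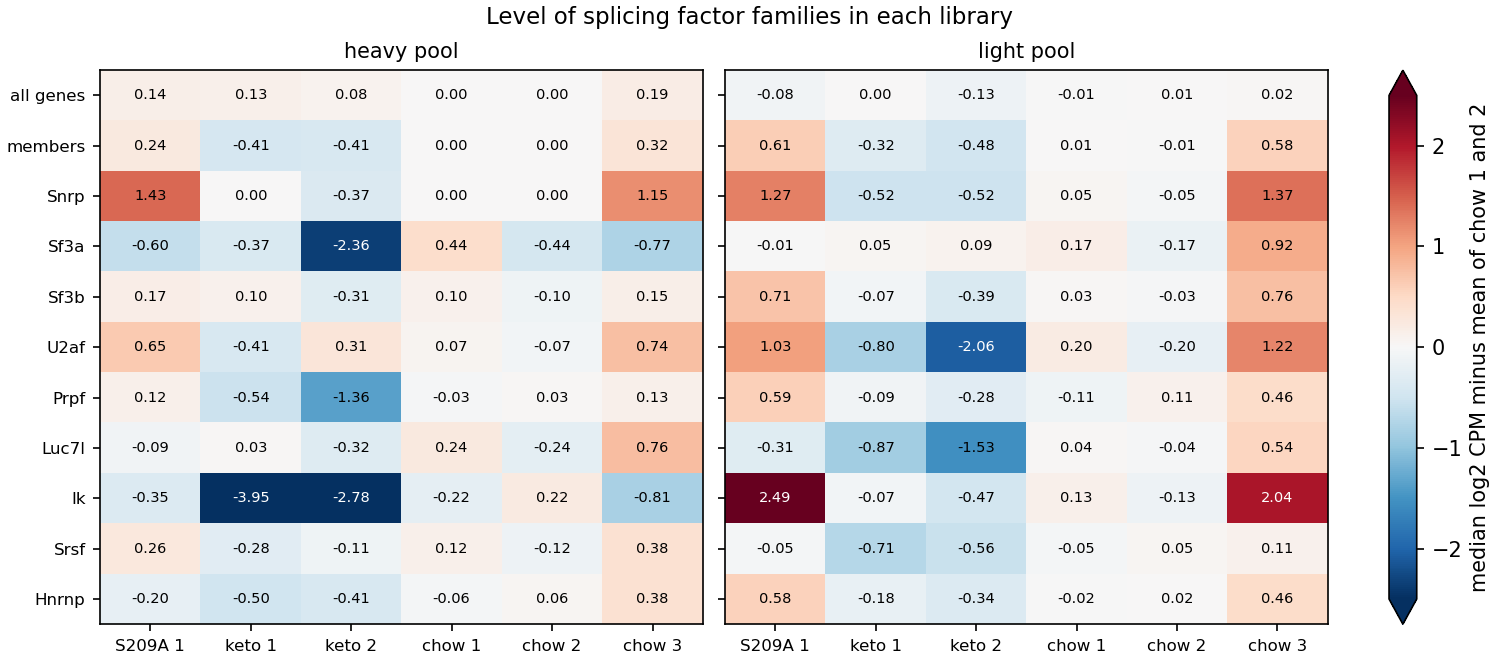
Median log2 CPM minus the mean of chow 1 and chow 2 (colour and printed value) for all 10555 genes, for the 68 tested members and for each family (rows), in each animal (columns), in the heavy pool (left) and the light pool (right). The members' medians are -0.41 in both keto heavy libraries and -0.32 and -0.48 in keto light, while chow 3 and S209A lie above 0 and the Snrp row is 1.15 to 1.43 there.

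The second comparison set heavy against light within each animal, with the animal as a block. Over all 6 animals no member passed. The median of the members was 0.10, beside -0.01 for all genes, and 40 of 68 were positive, beside 49.0% of all genes. The test passed 0 of 68 members and 3 of 10555 genes (0.0284%). At an unadjusted edgeR p under 0.05, 1 member was higher (1.47%), beside 1.89% of all genes, and 1 lower (1.47%), beside 1.52%. Heavy lay above light in all 6 animals for 1 member of 68, Hnrnpc, beside 1.5% of all genes, and below it for 0, beside 1.49%. The median of the members within an animal was -0.07 in S209A, 0.11 and 0.21 in keto, and 0.31, 0.27 and -0.08 in chow. Chow 1 and chow 2 were the highest and chow 3 the lowest.

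In chow alone 24 of 10555 genes passed (0.227%), among them Ik as the only member. Ik had 157, 363 and 353 counts in chow heavy, against 47, 47 and 404 in chow light, or 39, 52.6 and 25.7 against 8.18, 6.75 and 31.5 CPM. It rose in heavy by log2 1.64 ± 0.43 (SE, n = 3 animals, edgeR adjusted p 0.0493), though chow 3 held slightly less in heavy than in light: the differences in log2 CPM were 2.22, 2.91 and -0.29. Of 11 other settings the call was kept under 2, a scaling on protein-coding genes and the fit without chow 3. Hnrnph2 had 36, 29.7 and 8.46 CPM in chow heavy, against 5.22, 5.32 and 7.95 in chow light. Heavy was above light in each chow animal (log2 1.79 ± 0.49, edgeR adjusted p 0.0770), by differences of 2.72, 2.42 and 0.09. Hnrnpa0 had 24.3, 52.5 and 16.4 CPM in heavy and 14.3, 11.9 and 10.8 in light (log2 1.17 ± 0.40). Luc7l2 ran the other way in chow 1 and chow 2, with 11.9, 11.6 and 105 CPM in heavy and 38.8, 36.9 and 87.7 in light (log2 -1.02 ± 0.38, edgeR adjusted p 0.359).

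The calls differed without chow 3. Then 402 of 10554 genes passed (3.81%), and 4 members were among them. Ik (log2 2.58, edgeR adjusted p 1.62e-06), Hnrnph2 (2.60, 0.000211) and Hnrnpa0 (1.44, 0.0230) rose in heavy, and Luc7l2 (-1.72, 0.000733) fell. S209A has the same aligner and title wording as chow 3. Its heavy minus light was -0.27 for Ik, -0.38 for Hnrnph2, -0.36 for Hnrnpa0 and 0.32 for Luc7l2. For Ik, Hnrnph2 and Luc7l2 these values were nearer to chow 3 than to chow 1 or chow 2. For Hnrnpa0 the chow animals had 0.76, 2.11 and 0.60, so chow 3 lay near chow 1 and S209A lay below all 3. The summed nuclear RNA list also split the chow animals. It was lower in heavy in chow 1 and 2, at 1518 and 2309 summed CPM in heavy against 7358 and 4998 in light, and not in chow 3, at 2676 against 1738. Its part in the members' values was not tested.

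In keto 19 of 10555 genes passed (0.18%), with U2af1 the only member. It rose in heavy, with 16 and 20 counts in keto heavy, against 0 and 0 in keto light (edgeR adjusted p 0.0277). The mean of keto heavy was 8.59-fold above a floor of 3 counts over the light group. These are few counts, and the call was kept in 5 of the 10 other settings that tested the gene. In chow livers its counts were 11, 17 and 106 for the heavy pool, against 27, 20 and 60 for the light pool, or 2.73, 2.46 and 7.73 and 4.70, 2.87 and 4.68 CPM. Ik, high in heavy in chow 1 and 2, had 2.67 and 6.37 CPM in keto heavy and 7.05 and 5.30 in keto light (log2 -0.58 ± 0.54). Of all members 41 of 68 had positive values in keto, beside 51.7% of all genes. All 6 Sf3b genes and all 3 Luc7l genes were positive (medians 0.75 and 0.37), and none of them passed. Positive values were fewer in Prpf (5 of 13), Sf3a (1 of 3) and U2af (1 of 3). They were 5 of 9 in Snrp, 6 of 10 in Srsf and 14 of 20 in Hnrnp. Srsf1 had -0.60 ± 0.54 and Srsf2 0.69 ± 0.48, and neither passed.

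**Figure D5:**
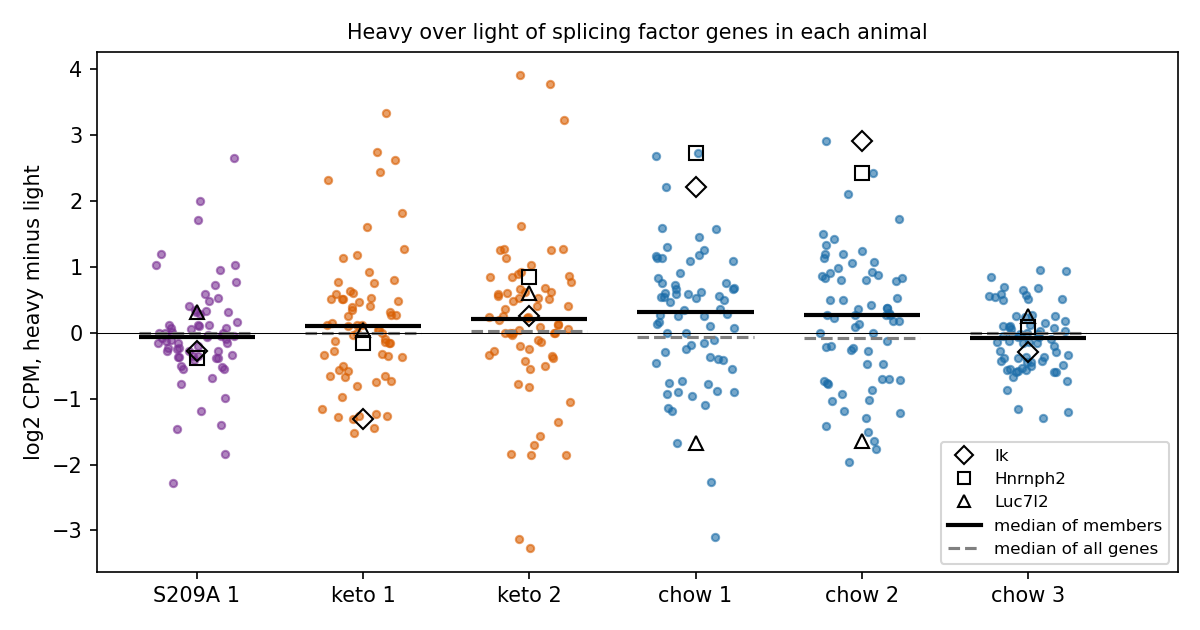
Log2 CPM in heavy minus light (vertical axis) for each of the 68 tested members in each animal; the thick line is the members' median, the dashed line that of all genes, and Ik, Hnrnph2 and Luc7l2 are outlined. The outlined genes lie far from 0 in chow 1 and chow 2 and within 0.40 of 0 in S209A and chow 3.

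The difference between diets in heavy over light was tested as keto minus chow in the same model. It passed for 0 of 68 members, where 20 of 10555 genes passed (0.189%). At an unadjusted edgeR p under 0.05, 5 members were higher (7.35%), beside 2.93% of all genes, and 2 lower (2.94%), beside 3.11%. Ik had log2 -2.22 ± 0.69 (edgeR adjusted p 0.263), with heavy minus light at -1.31 and 0.25 in keto and 2.22, 2.91 and -0.29 in chow. Luc7l2 had 1.34 ± 0.60 (edgeR adjusted p 0.766). U2af1, at 0 counts in keto light, did not pass either (edgeR adjusted p 0.0826). Without chow 3, where 2% of genes passed, these 3 members did, with edgeR adjusted p of 0.000249 for Ik, 0.0117 for Luc7l2 and 0.0227 for U2af1.

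The third comparison set the single S209A animal against chow, as values with no test; it shares its 3 chow animals with the keto comparison. A member counts as different when it lay over 2-fold from the chow mean and outside all 3 chow animals. In heavy 9 of 68 members lay higher (13.2%), beside 12% of all genes, and 5 lower (7.35%), beside 8%. In light 12 lay higher (17.6%), beside 14.9%, and 5 lower (7.35%), beside 18.4%. The shares in heavy were near those of all genes. The median difference of the members was 0.11 in heavy and 0.43 in light from the chow mean, and -0.03 and -0.04 from chow 3 alone, the animal with the same title wording and aligner.

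U2af1 lay higher in both pools, with 8.43 CPM in S209A heavy, against 2.73, 2.46 and 7.73 CPM in chow heavy, and 9.90 CPM in S209A light, against 4.70, 2.87 and 4.68 CPM in chow light. Only in light was it over 2-fold above chow 3 as well. Snrpd2 had 4.01 CPM in S209A heavy, against 1.49, 1.16 and 1.46 CPM in chow heavy, and 4.37 CPM in S209A light, against 0, 1.44 and 3.58 CPM in chow light, close to chow 3 in light. Prpf19 had 10.2 CPM in S209A heavy, against 1.99, 4.06 and 6.71 CPM in chow heavy, and 13.4 CPM in S209A light, against 4.70, 5.75 and 9.12 CPM in chow light. Snrpc, which encodes the C protein of the U1 snRNP, was the only other member higher in both pools, with 3.09 CPM in S209A heavy, against 0, 0.725 and 2.48 CPM in chow heavy. Srsf3 had 9.36 CPM in S209A heavy, against 3.23, 1.74 and 4.01 CPM in chow heavy, above chow 3 by 1.17 on the log2 scale. Hnrnpa3, an hnRNP of the A/B group, lay lower in both pools, with 1.23 CPM in S209A heavy, against 5.21, 3.19 and 4.88 CPM in chow heavy, and 1.29 CPM in S209A light, against 9.92, 5.60 and 9.12 CPM in chow light, and was over 2-fold below chow 3 in each. Ik and Hnrnpk, high in S209A light at 42.9 and 60.3 CPM, were also high in chow 3 light (31.5 and 46.4 CPM) and low in chow 1 and 2 (6.09 to 10.5 CPM). Against chow 3 alone 4 members of 68 were over 2-fold higher in heavy (5.88%), beside 11.4% of all genes, and 4 lower (5.88%), beside 13%. In light 4 were higher (5.88%), beside 13.3%, and 6 lower (8.82%), beside 19.2%.

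Other genes of the splicing pathway were read from lists, beside all-gene medians of -0.04 in heavy and -0.13 in light. Of all genes, 5440 of 10552 in heavy and 5892 of 10551 in light were negative. No gene of any list passed between keto and chow with 3 chow animals. The kinases that phosphorylate SR proteins and the SR-related proteins had negative keto over chow values for 18 of 20 in heavy and 20 of 20 in light, with medians of -0.59 and -0.91; without chow 3 it was 13 and 18 of 20. In light Rsrc2 (-1.66 ± 0.55), Clk3 (-1.52 ± 0.65) and Rbm25 (-1.33 ± 0.57) had the smallest p-values. Other snRNP and core spliceosome genes were negative for 20 of 24 in heavy and 17 of 24 in light (medians -0.75 and -0.25), and those of the catalytic step and the Prpf19 complex for 14 of 19 in heavy and 15 of 19 in light (medians -0.52 and -0.59). The exon junction and export genes were negative for 10 of 11 in heavy and 9 of 11 in light (medians -0.80 and -0.92), with Eif4a3 (-4.04 ± 1.33), Rbm8a (-2.18 ± 0.82) and Upf2 (-1.33 ± 0.57) first by p in heavy. Other RNA-binding regulators were split in heavy, with 13 of 25 in heavy and 18 of 25 in light negative (medians -0.06 and -0.36); without chow 3 their heavy median was 0.31, with 10 of 25 negative, and their light median -0.28. The snRNP assembly genes, the SMN complex and its partners, were negative for 4 of 10 in heavy and 4 of 10 in light (medians 0.22 and 0.10). Without chow 3 the heavy and light medians were -0.30 and -0.78 for the kinases and SR-related proteins, -0.67 and -0.12 for other snRNP genes, -0.40 and -0.47 for the catalytic step, -0.67 and -0.80 for exon junction genes, and 0.36 and 0.43 for assembly genes. The lists were not tested against each other.

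Levels of other RNA classes differed between keto and chow as well. Nuclear and untranslated RNAs were higher in keto heavy, at 13095 and 11058 summed CPM in keto, against 1518, 2309 and 2676 in chow, with 9 of 10 tested positive. Without chow 3, 4 of the 10 passed there (Kcnq1ot1, Meg3, Rn7sk and Rpph1). In light they were at 7371 and 11008 in keto, against 7358, 4998 and 1738 in chow. Mir17hg of that list was at 0 in every library. Hepatocyte markers summed to 5160 and 5869 CPM in keto heavy, against 10708, 11856 and 7372 in chow heavy, and to 6231 and 6416 in keto light, against 4461, 8331 and 5682 in chow light, with 8 of 8 present in every library. Erythroid markers were 36.6 and 93.7 CPM in keto light, against 9.74, 16.4 and 6.86 in chow light, with 4 of 4 present. Kupffer cell markers summed to 27.4 to 77.2 CPM, sinusoidal endothelial markers to 35.7 to 110.5, stellate markers to 23.8 to 54.6, cholangiocyte markers to at most 13.4, lymphocyte markers to at most 6.01 and neutrophil markers to at most 0.943 over the 12 libraries. Cd3d, Ly6g and Mpo were at 0 in every library. The part of these RNAs in the members' keto values was not tested.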

How the data were processed

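Heavy and light polysome pools of 6 mouse livers gave 12 total RNA libraries (10 ng RNA, stranded kit). The authors deposited raw counts per gene ID, and the unit is counts. Per the file headers, chow 3 and S209A were aligned with HISAT2 and chow 1 and 2 with Bowtie2, while the headers of keto 1 and 2 name no aligner. Trimmomatic, HISAT2, StringTie and mm10 are named in the submitters' processing notes, and the counting strand is not given in the sources used here. Reads of members with near-identical copies (Hnrnpa1, Srsf3, Sm genes) may be split among copies, so their counts are uncertain. The labels record an ERCC spike-in, but the tables hold 0 ERCC IDs, so no spike-in scaling was made.

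IDs were named through the RefSeq gene table (25275 of 27179 matched). Genes passing edgeR's filterByExpr (minimum of 10 counts) were scaled by TMM and tested with edgeR 4.0.16 quasi-likelihood fits (R 4.3.3), two-sided, with Benjamini-Hochberg adjustment over all genes and a threshold of 0.05. A log2 value is the fitted difference, its SE is its size divided by the square root of F, and CPM uses library sizes scaled by TMM. Heavy against light took the 12 libraries in 1 fit, blocked by animal. Keto against chow used the 6 libraries of a pool, with S209A as its own condition and animals as replicates. No label says that the animals came from separate cages or litters, so the p-values measure the spread between these animals. Within chow that spread includes any effect of the differing aligners. Same-numbered keto and chow animals did not deviate together (r = -0.0146 in heavy and -0.0275 in light), so the numbers do not pair them. The pools of a chow animal did (r = 0.307, 0.305 and 0.463). Both pools of an animal share an aligner, and the aligner differs among the chow animals. These r values therefore do not separate a shared liver from shared read processing. The alternatives were DESeq2 1.42.0, scaling on protein-coding genes, other count minimums, blocks, the title wording as a batch and leaving out each animal. The edgeR fits were tested on simulated data with large changes in genes of higher counts, independent libraries and no aligner split. That check does not cover members with few counts or the split within chow. Total counts ran from 3341046 to 13263355, and members with few counts are given as counts.

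Members given per library were those that passed a test, the 3 highest and 3 lowest of each comparison among members at or above the median level, and a fixed list of 14; further members named from their values are examples. The members and lists were chosen with earlier results of these data known.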

Additional observations from a re-analysis of the deposited data

How the results depend on the processing

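Over all settings tried, the fitted log2 of Ik, Hnrnph2 and Luc7l3 between keto and chow heavy kept its sign, as did the members' median in both pools, while the calls moved; the cause was not tested. In keto over chow heavy, 2 members passed (Ik and Hnrnph2) under DESeq2, with no filter on counts, with a replicate block, with the title wording as a batch and without chow 3, against 0 as reported (0 to 2 when leaving out 1 animal). The members' median there was -0.69 as reported, -0.38 with the replicate block, -0.40 with the title wording and -0.77 to -0.37 when leaving out 1 animal, with -0.37 without chow 3. No label states the pairing behind the replicate block, and the check of it used only chow 1 and 2 and keto 1 and 2. In light, 1 member (U2af1) passed with no filter. For heavy over light in chow, where 1 member passed as reported, 0 passed under DESeq2, with no filter, with a minimum mean of 50 counts and with no replicate block, and 0 to 4 when leaving out 1 animal: 4 without chow 3 and 0 without each of chow 1, chow 2, keto 1, keto 2 and S209A. For heavy over light in keto, 0 passed under DESeq2, with a minimum mean of 50 counts and with no replicate block, and 0 to 1 when leaving out 1 animal, with 0 without keto 1, keto 2 or S209A. For keto minus chow in heavy over light, 0 to 3 passed and the median ran from -0.0745 to 0.241 when leaving out 1 animal, with 3 and -0.0745 without chow 3. Against chow 3 alone, 4 members of S209A heavy and 4 of S209A light lay over 2-fold higher (5.88% of 68 in each, beside 11.4% and 13.3% of all genes), against 9 and 12 from the chow mean.

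Over all genes, counts of calls depended on the setting by over 1.5 times. Heavy over light in all 6 animals gave 3 genes as reported and 0 to 19 otherwise. Heavy over light in chow gave 24, with 94 by DESeq2, 11 with no filter, 0 with a minimum mean of 50 counts, 0 with no replicate block and 402 without chow 3. Heavy over light in keto gave 19, and 0 to 33 otherwise, and keto minus chow in heavy over light gave 20, and 0 to 211 otherwise. Keto over chow gave 0 genes in both pools; in heavy DESeq2 gave 98, no filter 112, the replicate block 83, the title wording 126 and leaving out chow 3 gave 108, and in light no filter gave 39 and the replicate block 5. The DESeq2 adjusted p of U2af1 for heavy over light in keto and of Ik in chow was not defined. Depth limits members with few counts, such as U2af1, with 0 to 20 counts in the keto libraries and 11 to 106 in the chow libraries.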
